A study of Mus musculus with 10 samples.

Results

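The genes described here are 10 genes of the unfolded protein response of the endoplasmic reticulum (ER), chosen by symbol from the 52097 genes of the deposited table: Hspa5, Dnajb9, Herpud1, Xbp1, Sel1l, Edem1, Hsp90b1, Pdia4, Sdf2l1 and Creld2. All 10 symbols were found, each in a single row. RNA was sequenced in bulk from mouse bone marrow haematopoietic stem cells, about 5000 per sample, sorted as Lin-Sca-1+c-Kit+CD48-CD150+ and made into libraries with a kit that amplifies messenger RNA from low input. The 5 control libraries came from samples titled Dhx16_fl, whose genotype is given as WT, and the 5 knockout libraries from samples titled Dhx16_CKO. Dhx16 encodes an RNA helicase that acts on the spliceosome before the first step of splicing. The labels used here give no Cre driver, age, treatment or time after deletion, and do not say whether each sample was a separate mouse, so p-values measure only the spread between these samples, which may be technical. Library columns are numbered WT2 to WT6 and CKO7, CKO8, CKO9, CKO12 and CKO13, which are not the numbers in the sample titles, so a column could be tied to its group and not to a titled sample.

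The ER folds and modifies proteins that enter the secretory pathway, and the unfolded protein response adjusts its capacity to the load of unfolded protein. Membrane sensors start it in mammals. The sensor IRE1 removes a short stretch from Xbp1 messenger RNA, and the spliced form encodes an active transcription factor. ATF6 is released by cleavage in the Golgi and binds ER stress response elements, and PERK phosphorylates the initiation factor eIF2, which lowers general translation and favours that of ATF4 and CHOP. The targets include lumenal chaperones, which fold proteins, and the machinery of ER-associated degradation, which returns misfolded proteins to the cytosol for destruction. Haematopoietic stem cells make protein at a low rate and are known to be sensitive to disturbed protein folding.

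Values are FPKM, fragments scaled to transcript length and to library size, so levels can be compared between genes. Changes are knockout minus control on the log2(FPKM + 1) scale, from limma, with p-values adjusted by the Benjamini-Hochberg method over 6913 genes at 10 FPKM or more in at least 5 libraries. A gene with an adjusted p under 0.05 is called changed. Of the 10 genes, 9 passed this filter, each at 10 FPKM or more in all 10 libraries, and Edem1 did not. Dhx16 itself was 22.63, 20.53, 14.58, 15.50 and 14.33 FPKM in WT2 to WT6, and 10.88, 10.56, 8.80, 7.10 and 10.13 FPKM in the knockout libraries in the order above. Its groups did not overlap with FPKM as deposited, and it fell by 0.81 on the log2 scale (SE 0.16, limma adjusted p = 0.000638). After the median-of-ratios factors described next it fell by 0.45 (limma adjusted p = 0.0156). In the authors' own deposited DESeq2 comparison its change was -0.90 (adjusted p = 7.36e-07). The scale between the groups bears on every change below. Over all tested genes the median change stood at -0.12 with FPKM as deposited and at 0.25 after median-of-ratios factors. Those factors scale each library by its typical gene among all genes detected in every library, whether tested or not. Results are given with both.

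With FPKM as deposited, none of the 9 tested genes was called higher in the knockout by limma, at an unadjusted p under 0.05 either, and 4 were called lower: Dnajb9, Herpud1, Xbp1 and Sel1l. Over all tested genes 21.1% were called higher and 31.6% lower. The median change of the 9 genes was -0.40. After median-of-ratios factors Dnajb9, Herpud1 and Xbp1 were still called lower, Sel1l was not, and the lumenal chaperone gene Hsp90b1 and the disulfide isomerase gene Pdia4 were called higher. Under those factors 44.2% of all tested genes were called higher and 11.8% lower, and the median of the 9 genes was -0.03. In the authors' deposited table, which holds their own DESeq2 comparison, Dnajb9 and Herpud1 were lower and Hsp90b1 and Pdia4 higher at an adjusted p under 0.05, among 17.1% of 23405 genes called higher and 11.5% lower. With FPKM as deposited, every knockout library lay below every control library in 4 of the 9 genes, and above in none. The shares of all tested genes were 22.1% and 12.9%. This separation depends on the scale between the groups and was not counted after median-of-ratios factors. Bulk RNA cannot tell fewer cells of a type from less RNA per cell.

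**Figure D1:**
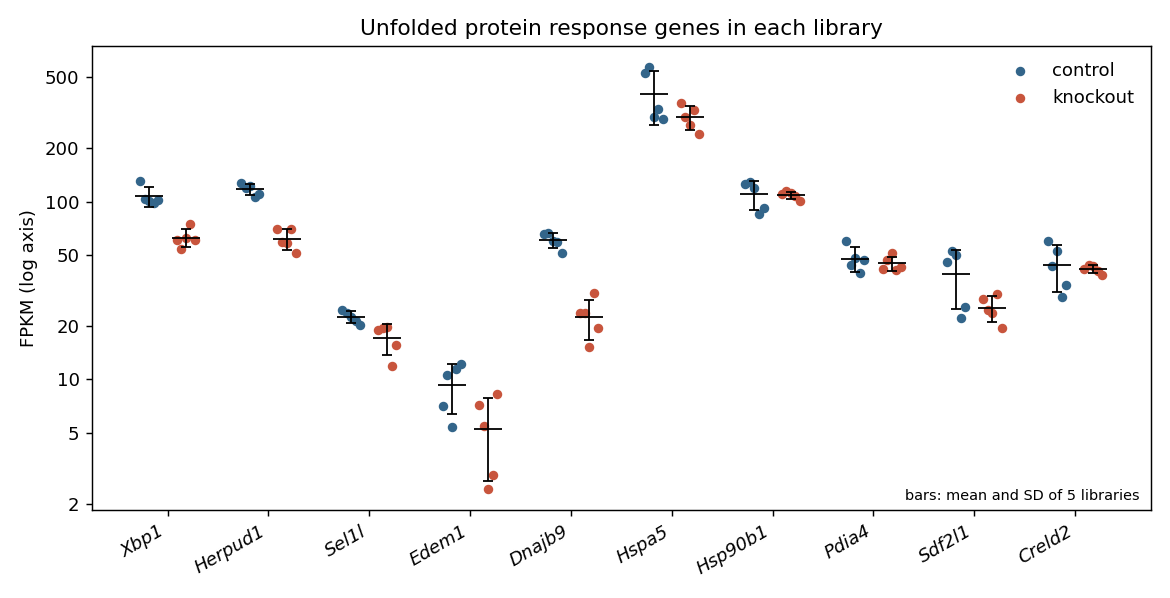
FPKM of the 10 genes (log axis) in each of the 5 control and 5 knockout libraries, with bars for the mean and SD of each group. All knockout points lie below all control points for Xbp1, Herpud1, Sel1l and Dnajb9, and the groups overlap for the other 6 genes.

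Summed FPKM of the libraries ran from 770789 to 966648. Relative depths recovered from the authors' normalized counts ran from 0.73 to 1.36, and the mean normalized count of the 10 genes ran from 392 for Sdf2l1 to 11633 for Hspa5. Stem cell markers were present (10 genes summing to 789 to 1144 FPKM in control and 534 to 836 in knockout libraries), with 6 of 8 tested called lower. Some markers of other cells moved with the knockout. The 12 genes of plasma and B cells, of which plasma cells depend on XBP1, summed to 60.6 to 94.7 FPKM in control and 31.4 to 44.1 in knockout libraries. Both tested members were called lower, 4 of the 12 were under 1 FPKM in every library and none was at 0 in all. The secretory marker Jchain, at a low level, was 0.50 to 1.16 FPKM in control and 0.04 to 0.13 FPKM in knockout libraries. Not all of the 12 moved alike. The mean of Ms4a1 was 0.30 FPKM in control and 0.33 in knockout libraries. Cd79a was 0.35 to 1.89 and 0.49 to 1.58 FPKM, with groups that overlapped. Cd79b had the highest level of the 12 (26.51 to 45.66 and 16.96 to 30.63 FPKM). Macrophage genes summed to 117 to 272 and 10.6 to 27.5 FPKM (3 of 3 tested lower), 8 of 8 megakaryocyte and platelet genes were lower (1528 to 2312 and 718 to 1412 FPKM) and 8 of 8 erythroid genes higher (120 to 397 and 753 to 1177 FPKM). Granulocyte genes ranged from 9928 to 74603 FPKM in control and 8712 to 41018 in knockout libraries, and bone matrix genes from 3180 to 65871 and 4549 to 47778, with groups that overlapped. The part of these cells in the changes reported here was not tested. Without the library of each group highest in bone matrix genes, or highest in granulocyte genes, Dnajb9, Herpud1 and Xbp1 stayed called lower, and Sel1l was not called, with log2 changes of -0.41 and -0.43 (limma adjusted p = 0.0624 and 0.0542).

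Among the 10 genes Dnajb9 had the largest change. It encodes ERdj4, a co-chaperone of the DnaJ family that stimulates the ATPase of BiP, assists degradation and can hold BiP on the sensor IRE1 (chromosome 12, 44205559 to 44210326, minus strand, mm10). Its levels were 65.79, 66.93, 59.76, 59.49 and 51.67 FPKM in WT2 to WT6, and 23.52, 23.56, 15.12, 30.44 and 19.52 FPKM in CKO7, CKO8, CKO9, CKO12 and CKO13. Every knockout library was below every control library, and the highest of them, CKO12, was well under the lowest control, WT6. The mean fell from 60.7 ± 6.10 to 22.4 ± 5.67 FPKM (SD, n = 5 each), to 36.9% of the control level. The log2 change was -1.43 (SE 0.16, 95% interval -1.76 to -1.10, limma adjusted p = 7.5e-06), or -1.31 relative to the median of all tested genes. After median-of-ratios factors it was -1.05 (limma adjusted p = 0.000236), and in the authors' deposited table -1.02 (adjusted p = 6.02e-06).

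Xbp1, the transcription factor that IRE1 activates by splicing, lies on chromosome 11 from 5520659 to 5525893 (plus strand). The stretch of the transcript that IRE1 removes is shown because deposited gene-level values cannot separate its spliced and unspliced forms. It was located in the GENCODE M21 transcript Xbp1-201 as the 26 bases, not a multiple of 3, between 2 cuts in paired loops (positions 815 to 840 of 2129). The removed bases are in capitals, within positions 800 to 855:
Xbp1-201: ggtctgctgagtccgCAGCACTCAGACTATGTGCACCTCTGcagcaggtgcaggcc
Total Xbp1 RNA was 131.09, 103.16, 101.22, 98.32 and 101.43 FPKM in WT2 to WT6, and 60.70, 54.41, 62.37, 74.36 and 60.71 FPKM in the knockout libraries. No knockout library reached the lowest control, and WT2 stood above the other 4 controls. The mean fell from 107 ± 13.6 to 62.5 ± 7.29 FPKM (SD, n = 5 each), a log2 change of -0.77 (SE 0.12, limma adjusted p = 0.000106). After median-of-ratios factors the change was -0.38 (limma adjusted p = 0.0196), and in the authors' deposited table it was -0.33 with an adjusted p of 0.0816, past no threshold.

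Herpud1, Sel1l and Edem1 belong to ER-associated degradation. Herpud1 encodes HERP, a membrane protein that organises the HRD1 ubiquitin ligase complex (chromosome 8, 94386438 to 94395377, plus strand). It stood at 127.47, 118.70, 121.79, 106.44 and 110.74 FPKM in WT2 to WT6, and 70.07, 59.03, 58.80, 70.01 and 51.27 FPKM in the knockout libraries. The groups were apart, with a wide gap between the lowest control, WT5, and the highest knockout library, CKO7. The mean fell from 117 ± 8.46 to 61.8 ± 8.11 FPKM (SD, n = 5 each), a log2 change of -0.92 (SE 0.12, limma adjusted p = 2.01e-05). After median-of-ratios factors the change was -0.53 (limma adjusted p = 0.00311), and in the authors' deposited table -0.48 (adjusted p = 0.00599).

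Sel1l encodes the adaptor that stabilises the HRD1 ligase and passes substrates to it (chromosome 12, 91806043 to 91849157, minus strand). Its levels were 24.66, 23.72, 22.57, 21.43 and 20.10 FPKM in WT2 to WT6, and 18.87, 19.36, 19.62, 11.83 and 15.67 FPKM in the knockout libraries. The knockout libraries were all lower, but CKO7, CKO8 and CKO9 lay just under the lowest control. The log2 change was -0.40 (SE 0.14, limma adjusted p = 0.0278). It was -0.03 after median-of-ratios factors (limma adjusted p = 0.849) and 0.02 in the authors' deposited table (adjusted p = 0.954). Without control library WT2 the limma adjusted p was 0.0598, without WT3 0.0571, without knockout library CKO12 0.0667 and without CKO13 0.0605, so the call rested on each of these libraries.

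Edem1, a mannosidase-like lectin that extracts misfolded glycoproteins from the folding cycle (chromosome 6, 108828641 to 108859356, plus strand), was the least abundant of the 10. It measured 7.06, 10.59, 5.39, 11.38 and 12.20 FPKM in WT2 to WT6, and 7.20, 5.44, 2.43, 2.91 and 8.32 FPKM in the knockout libraries. The groups overlapped, since CKO7 and CKO13 were above WT2 and WT4. With a filter of 1 FPKM the log2 change was -0.78 (SE 0.31, limma adjusted p = 0.0525), not past the threshold.

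The other 5 genes encode lumenal folding factors, and none was called with FPKM as deposited. Hspa5 encodes BiP, the HSP70 chaperone of the ER lumen and the gene most used to read this response (chromosome 2, 34771970 to 34777547, plus strand). It was 529.85, 571.35, 297.46, 331.60 and 291.98 FPKM in WT2 to WT6, and 358.04, 298.03, 270.46, 327.47 and 238.51 FPKM in the knockout libraries. WT2 and WT3 were far above all other libraries, whereas the other 3 controls lay within the range of the knockout libraries, 239 to 358 FPKM. The mean was 404 ± 135 in control and 299 ± 46.8 FPKM in knockout (SD, n = 5 each), with a log2 change of -0.39 (95% interval -0.81 to 0.03, limma adjusted p = 0.111). After median-of-ratios factors the change was -0.0034 (95% interval -0.47 to 0.46, limma adjusted p = 0.991).

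Hsp90b1 encodes GRP94, the HSP90 chaperone of the ER (chromosome 10, 86690209 to 86705509, minus strand). Its levels were 126.33, 128.39, 119.09, 85.01 and 91.95 FPKM in WT2 to WT6, and 110.18, 114.13, 111.62, 106.99 and 100.74 FPKM in the knockout libraries. The knockout libraries fell between the 3 high and the 2 low controls. The means were 110 ± 20.2 and 109 ± 5.16 FPKM (SD, n = 5 each), and the log2 change was 0.00 (95% interval -0.28 to 0.28, limma adjusted p = 0.999). With median-of-ratios factors it was 0.38 (limma adjusted p = 0.0162), and 0.39 in the authors' deposited table (adjusted p = 0.0156). Relative to the median of all tested genes the change was 0.12 as deposited and 0.13 after those factors. Reads at this gene may be shared with overlapping annotations, of which the opposite-strand pseudogene 1810014B01Rik averaged 13.1 FPKM and the microRNA gene Gm25745, on the same strand, 235 FPKM, and no strand setting is given in the sources used here.

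Pdia4 encodes ERp72, a protein disulfide isomerase (chromosome 6, 47796141 to 47813430, minus strand). It measured 59.96, 43.78, 48.21, 39.76 and 47.14 FPKM in WT2 to WT6, and 41.94, 47.00, 51.23, 41.38 and 43.14 FPKM in the knockout libraries. The groups overlapped, with the highest value in WT2 and the lowest in WT5. The log2 change was -0.08 with FPKM as deposited (limma adjusted p = 0.614) and 0.30 after median-of-ratios factors (limma adjusted p = 0.0225), so its sign and its call turned on the scale. Relative to the median of all tested genes the change was 0.04 as deposited and 0.05 after those factors.

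Sdf2l1 encodes a lumenal partner of the BiP and ERdj3 chaperone cycle (chromosome 16, 17130138 to 17132383, minus strand). Its levels were 45.86, 52.53, 49.97, 22.26 and 25.51 FPKM in WT2 to WT6, and 28.22, 24.44, 23.65, 30.29 and 19.56 FPKM in the knockout libraries. WT2, WT3 and WT4 were above every knockout library, and WT5 and WT6 were within the knockout range. The log2 change was -0.55 (95% interval -1.07 to -0.03, limma adjusted p = 0.0710). It was past the threshold without WT5 (limma adjusted p = 0.00904) or without WT6 (limma adjusted p = 0.0277), and far from it after median-of-ratios factors (-0.17, limma adjusted p = 0.564).

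Creld2, a lumenal protein with isomerase activity that binds unfolded clients (chromosome 15, 88819646 to 88826683, plus strand), was 59.92, 43.36, 52.88, 29.04 and 34.08 FPKM in WT2 to WT6. In the knockout libraries it was 41.96, 43.87, 43.34, 40.70 and 38.59 FPKM. Here too WT5 and WT6 were the low controls, and the knockout libraries lay inside the control range. The log2 change was -0.02 (limma adjusted p = 0.914), and 0.35 after median-of-ratios factors (limma adjusted p = 0.0567).

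**Figure D2:**
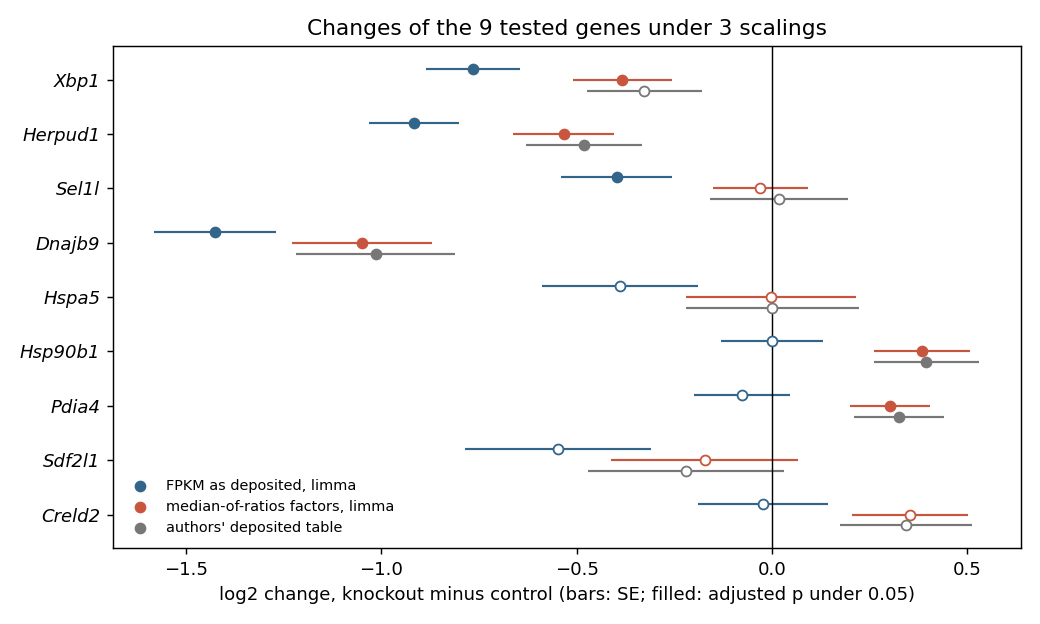
Log2 change (x axis, knockout minus control) of the 9 tested genes with FPKM as deposited, after median-of-ratios factors, and in the authors' deposited table, with bars for the SE and filled points where the adjusted p was under 0.05. Dnajb9 and Herpud1 are filled and negative under all 3, whereas Hsp90b1 and Pdia4 are filled only under the last 2.

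In the order of levels, Hspa5 was the most abundant of the 10 in both groups and Edem1 the least. In control libraries Herpud1, Hsp90b1 and Xbp1 came next, each apart from its neighbour in this order by less than either SD (117 ± 8.46, 110 ± 20.2 and 107 ± 13.6 FPKM). Dnajb9 followed in the fifth place, and Pdia4, Creld2 and Sdf2l1 came after it, neighbours again closer than either SD (47.8 ± 7.57, 43.9 ± 12.8 and 39.2 ± 14.3 FPKM). In knockout libraries Hsp90b1 stood second at 109 ± 5.16 FPKM, above Xbp1 and Herpud1, whose levels did not differ beyond their spread (62.5 ± 7.29 and 61.8 ± 8.11 FPKM). Dnajb9 had moved from rank 5 to rank 8, next to Sdf2l1 at 25.2 ± 4.18 FPKM.

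A ratio of the FPKM of 2 genes in the same library, taken without a pseudocount, does not depend on the scale between libraries. The log2 ratio of Dnajb9 to Hspa5 was -3.01, -3.09, -2.32, -2.48 and -2.50 in WT2 to WT6, and -3.93, -3.66, -4.16, -3.43 and -3.61 in the knockout libraries. All 5 knockout ratios were below all 5 control ratios, with a mean difference, knockout minus control, of -1.08 on the log2 scale. For the other 8 genes the ratios to Hspa5 of the 2 groups overlapped. The share of all genes whose ratio to Hspa5 separates the groups was not computed. Hspa5 was 529.85 and 571.35 FPKM in WT2 and WT3 and 291.98 to 331.60 in the other controls, a spread that enters every ratio. The mean ratio of Herpud1 to Hspa5 was -1.73 ± 0.42 in control and -2.27 ± 0.07 in knockout libraries, and that of Hsp90b1 was -1.83 ± 0.34 and -1.44 ± 0.20 (SD, n = 5 each).

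Within each group many of the 10 genes stood high or low in the same libraries. Of the 10 genes, 9 were above their group mean in WT2 and 8 in WT3, but 1 in WT5 and 1 in WT6. Among the knockout libraries 8 were above their group mean in CKO7 and 1 in CKO13. Over the 45 pairs of genes the median Pearson r across the 10 libraries, after removal of group means, was 0.40, from -0.53 to 0.92, a description of libraries that share depth and scale. The control libraries had coefficients of variation of 36.3% for Sdf2l1, 33.4% for Hspa5, 31.6% for Edem1 and 29.2% for Creld2. In knockout libraries these were 16.6%, 15.7%, 49.1% and 5.11%. In all, 6 of the 10 genes varied more among control libraries, and 4, Dnajb9, Sel1l, Herpud1 and Edem1, more among knockout libraries (10.04% and 25.3% for Dnajb9). The difference in spread between groups was not tested.

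**Figure D3:**
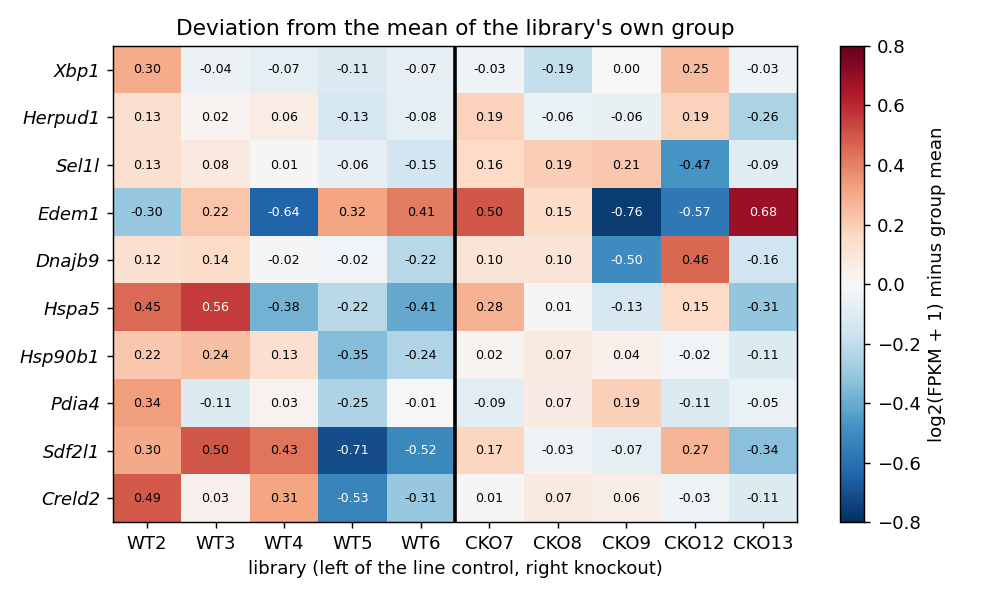
Deviation of each gene's log2(FPKM + 1) from the mean of the library's own group, by gene (rows) and library (columns, control left of the line). Sdf2l1, Hsp90b1 and Creld2 are below their group mean in WT5 and WT6 and above it in WT2, WT3 and WT4.

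The 5 tested genes outside the ER lists whose log2 values followed the mean of these genes most closely, across the 10 libraries after removal of group means, were Chd1 (Pearson r = 0.95), Pcbp1 (0.92), Faf1 (0.88), Rfc2 (0.88) and Nudc (0.88), out of 6782 candidates. These values describe a ranking over libraries that share depth and scale.

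The promoters of the 10 genes were compared with 32851 mouse promoters of RefSeq (GRCm38.p6, the assembly of mm10), each from 250 bases before to 50 after the start of the gene, on both strands. All 10 genes had an entry. The ER stress response element, CCAAT and CCACG separated by 9 bases, which ATF6 binds together with the factor NF-Y, was present in 3 of the 10 promoters (Hspa5, Hsp90b1 and Creld2) and in 0.119% of all promoters. Its second form, ATTGG and CCACG separated by 1 base, was found in 1 of 10, Herpud1, and in 0.0365% of all. The element TGACGTGG, an XBP1 site, had no match in the 10 windows and a match in 0.676% of all promoters. The core ACGTG, which overlaps the last, was in 3 of 10 (Hspa5, Herpud1 and Dnajb9) and in 19.6% of all. The separate pieces CCAAT and CCACG each occurred in 9 of 10, against 37.4% and 32.8% of all promoters, and overlap the longer elements.

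The stretches that hold the paired elements are shown on the strand of the gene, with the fixed letters of the element in capitals, because they set the genes with a full element apart by sequence alone. CGTGG with ATTGG is the same element read on the opposite strand.
Hspa5, chr2:34772010-34772058, plus strand: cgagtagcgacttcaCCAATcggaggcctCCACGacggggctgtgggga
Hsp90b1, chr10:86705623-86705671, minus strand: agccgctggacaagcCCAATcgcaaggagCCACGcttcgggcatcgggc
Hsp90b1, chr10:86705518-86705566, minus strand: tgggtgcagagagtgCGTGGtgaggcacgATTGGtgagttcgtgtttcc
Creld2, chr15:88819505-88819553, plus strand: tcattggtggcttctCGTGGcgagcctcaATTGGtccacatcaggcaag
Herpud1, chr8:94386362-94386402, plus strand: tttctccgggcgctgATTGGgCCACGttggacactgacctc
Of the 4 genes shown, Hspa5, Hsp90b1 and Creld2 were not called with FPKM as deposited, and Herpud1, with the second form of the element, fell. Dnajb9, Xbp1 and Sel1l, the other genes that fell, had neither form in the window. Of 49 genes with either form, 4 of them the genes just shown, 16 were tested, of which 5 were called higher, 2 lower and 9 not called, with a median change of 0.03, beside 21.1% higher and 31.6% lower over all tested genes. After median-of-ratios factors 10 were called higher and 1 lower (median 0.41), beside 44.2% and 11.8%. The 5 higher with FPKM as deposited were Canx, Hnrnpa3, Krtcap2, Rcl1 and Syvn1, and the 2 lower were Herpud1 and Rbm39, all named for this count.

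The wider machinery was read from 7 lists of other ER genes, 147 in all, of which 120 were tested. With FPKM as deposited 33 were called higher and 20 lower, with a median change of 0.05, beside 21.1% and 31.6% of all tested genes. After median-of-ratios factors 73 were higher and 4 lower, beside 44.2% and 11.8%. All 33 of the first count and 4 of the 20 were called in the same direction under both. Those factors moved the median change of all tested genes from -0.12 to 0.25, which favours keeping rises and losing falls. The overlap is therefore no separate support for the rises. Of the genes for targeting to the ER, the translocon and N-glycosylation, 13 of 31 tested were called higher and none lower by limma, at an unadjusted p under 0.05 either (median 0.27), and 27 of 31 were called higher after median-of-ratios factors. They included Sec61g, a subunit of the protein channel, at 69.7 ± 28.3 and 135 ± 14.4 FPKM (log2 change 1.02, limma adjusted p = 0.000962), and Ssr2, of the translocon-associated complex, at 126 ± 24.6 and 215 ± 10.9 FPKM (0.78, limma adjusted p = 0.000238).

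Among the sensors and their processing factors 2 of 8 tested were called higher and none lower by limma, at an unadjusted p under 0.05 either (median -0.07). The share called higher was near the 21.1% of all tested genes, of which 31.6% were called lower. After median-of-ratios factors 5 were called higher and none lower, beside 44.2% and 11.8% of all tested genes. Rtcb, the ligase that joins the ends of Xbp1 RNA after IRE1 has cut it, rose from 111 ± 11.8 to 149 ± 13.6 FPKM (log2 change 0.42, limma adjusted p = 0.00592), with all knockout libraries above all controls. Creb3, an ER-anchored transcription factor, rose by 0.48 (limma adjusted p = 0.0217). The other 6 genes of this list were below the filter. With a filter of 1 FPKM none of these 6 was called higher and 4 were called lower (Ern1, Creb3l2, Nfya and Mbtps2), beside 36.4% of all genes called lower at that filter. Ern1 encodes IRE1 and is described after its values were seen. It measured 14.68, 11.54, 9.28, 11.84 and 10.40 FPKM in WT2 to WT6, and 5.51, 6.17, 6.17, 7.52 and 4.15 FPKM in the knockout libraries. The groups did not overlap, and the log2 change at that filter was -0.87 (limma adjusted p = 0.000776), but it was -0.20 in the authors' deposited table (adjusted p = 0.510), where Creb3l2 alone of the 14 genes on this list was lower at an adjusted p under 0.05.

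Of the other lumenal chaperones and co-chaperones 2 of 17 tested were called higher and 4 lower (median 0.04). Both shares were below the 21.1% and 31.6% of all tested genes. Ppib, cyclophilin B, a prolyl isomerase, rose by 0.63 (limma adjusted p = 0.000788) and Canx, the lectin chaperone calnexin, by 0.44 (limma adjusted p = 0.00555). Dnajc1, a membrane co-chaperone of BiP, fell by 0.70 on the log2 scale (limma adjusted p = 0.00056) and Creld1, the paralogue of Creld2, fell by 0.62 (limma adjusted p = 0.00289). Under median-of-ratios factors the counts were 9 higher and 1, Dnajc1, lower (limma adjusted p = 0.0388). The shares of all tested genes were then 44.2% and 11.8%.

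Disulfide isomerases and oxidases had 6 of 16 tested called higher and 3 lower (median 0.09), beside 21.1% and 31.6% of all tested genes. Prdx4, the peroxiredoxin of the ER lumen, rose by 0.73 (limma adjusted p = 0.00146) and Selenof, a selenoprotein of the ER, by 0.46 (limma adjusted p = 0.0129). The membrane thioredoxins Tmx4 and Tmx3 fell by 0.67 and fell by 0.56 (limma adjusted p = 0.00461 and 0.00625), calls that median-of-ratios factors did not keep. Under those factors 10 of the 16 were called higher and none lower (median 0.45), beside 44.2% and 11.8%.

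In ER-associated degradation 4 of 22 tested genes were called higher and 7 lower (median -0.14), near the 21.1% and 31.6% of all tested genes. Ube2g2, a ubiquitin-conjugating enzyme, rose by 0.56 (limma adjusted p = 0.00188) and Vcp, the ATPase that pulls substrates from the membrane, by 0.53 (limma adjusted p = 0.00235). Selenok and Herpud2 fell by 0.70 and fell by 0.69 (limma adjusted p = 0.000614 and 0.000284). Herpud2 passed the filter of 10 FPKM through the control libraries alone (10.57 to 13.08 FPKM in control, 6.53 to 7.67 in knockout). After median-of-ratios factors 9 of the 22 were called higher and 1, Herpud2, lower (limma adjusted p = 0.0322). The shares of all tested genes were then 44.2% and 11.8%. In export from the ER by COPII vesicles 4 of 17 were called higher and 1 lower (median -0.03), beside 21.1% and 31.6%. Sec13, a coat subunit, rose by 0.55 and Tmed10, a cargo receptor, by 0.48 (limma adjusted p = 0.00308 and 0.00193), and Mcfd2, a partner of the cargo receptor LMAN1, fell by 0.69 (limma adjusted p = 0.000659). After median-of-ratios factors 11 of the 17 were called higher and none lower (median 0.34), beside 44.2% and 11.8%. Mcfd2 was then at -0.30 (limma adjusted p = 0.0781).

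**Figure D4:**
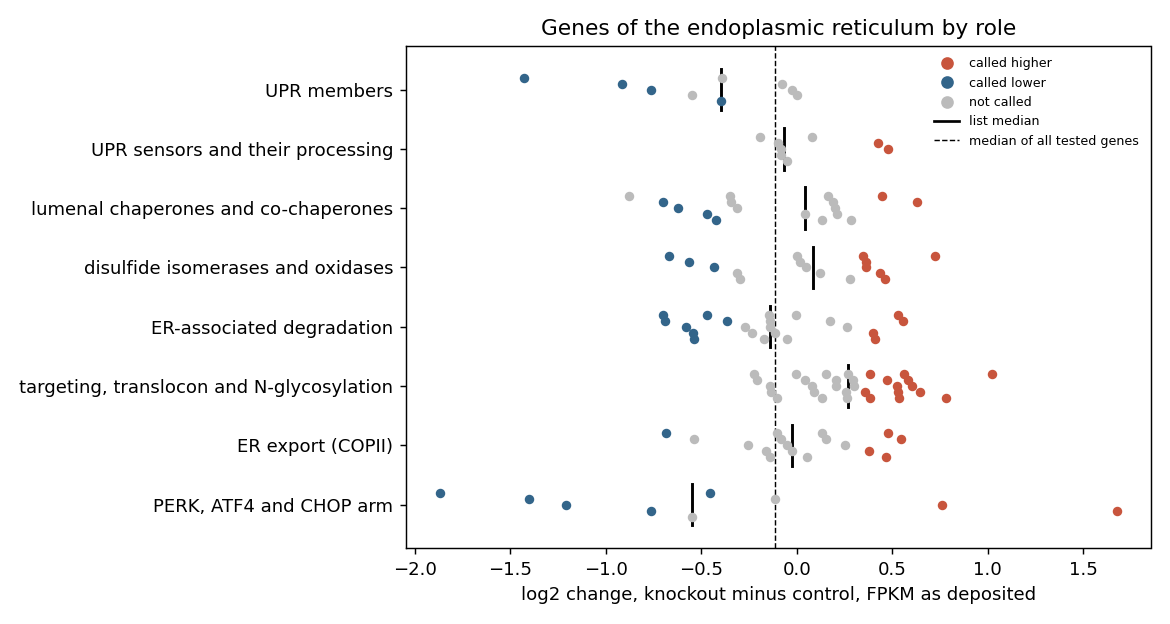
Log2 change (x axis, FPKM as deposited, knockout minus control) of each tested gene in the 8 lists, coloured by call, with a bar at each list's median and a dashed line at the median of all tested genes, -0.12. The targeting, translocon and N-glycosylation list has 13 genes called higher and none lower, and the 9 tested unfolded protein response genes have none called higher.

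The arm of PERK, ATF4 and CHOP had 2 of 9 tested genes called higher and 5 lower (median -0.55), beside 21.1% and 31.6% of all. After median-of-ratios factors 2 were higher and 2 lower (median -0.17), beside 44.2% and 11.8%. The share called higher as deposited was near that of all tested genes. Ddit3, which encodes CHOP, the pro-apoptotic transcription factor of this arm, was 84.04, 75.39, 93.03, 69.92 and 71.56 FPKM in WT2 to WT6, and 27.34, 29.76, 21.44, 41.03 and 28.75 FPKM in the knockout libraries. The groups were far apart, and the log2 change was -1.40 (SE 0.15, limma adjusted p = 6.48e-06), or -1.02 after median-of-ratios factors (limma adjusted p = 0.000135). Atf3, a stress-induced transcription factor, was 38.26, 45.33, 20.31, 23.61 and 24.38 FPKM in WT2 to WT6, and 7.24, 8.74, 1.68, 15.19 and 9.71 FPKM in the knockout libraries. Its groups did not overlap either (log2 change -1.87, limma adjusted p = 0.00906).

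Asns, which encodes asparagine synthetase, an amino acid enzyme under ATF4 control, moved the opposite way. It was 25.39, 30.99, 18, 14.26 and 29.30 FPKM in WT2 to WT6, and 72.83, 90.77, 66.99, 59.63 and 87.27 FPKM in the knockout libraries. All knockout libraries were above all controls, with a log2 change of 1.68 (SE 0.20, limma adjusted p = 2.07e-05), or 2.05 after median-of-ratios factors. Eif2s1, the eIF2 subunit that PERK phosphorylates, rose by 0.76 (limma adjusted p = 0.000312). Genes of this list moved in both directions between the same libraries. The other 5 genes of this list were below the filter. With a filter of 1 FPKM, 1 of these 5 was called higher and 2 lower. Over all genes at that filter 1797 of 13448 were called higher and 4890 lower. Trib3, an ATF4 and CHOP target, averaged 11.9 ± 2.21 in control and 3.05 ± 0.86 FPKM in knockout libraries. Its log2 change at that filter was -1.68 (limma adjusted p = 2.9e-05). Cebpg fell by 0.62 (limma adjusted p = 0.00137), whereas Sesn2 rose by 0.62 (limma adjusted p = 0.00414). Trib3, Cebpg and Sesn2 were named after their values were seen.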

How the data were processed

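The sorted stem cell libraries, 5 control and 5 knockout, were compared. Per the submitters' processing notes, Bowtie 0.12.9, Cufflinks 2.1.1, HTSeq and mm10 were used, with no tool tied to a column and the strand setting not given in the sources used here. The deposited library columns carry no unit, and they were taken as FPKM from their values and the tools named. The authors deposited a mean normalized count signal, log2 fold changes with SEs and p-values from their own comparison, used only where named. Relative depth was recovered from genes seen in 1 library, where the normalized counts were whole reads within a tolerance of 0.01 for 99.4% to 100% of values, and precision is limited by the 5 libraries per group.

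Columns were assigned to groups by name. The test was limma 3.58.1 (trend and robust options, R 4.3.3) on log2(FPKM + 1), with a pseudocount of 1, a filter of 10 FPKM in at least 5 libraries and Benjamini-Hochberg adjustment, and was tested on simulated data. A gene could pass the filter through 1 group alone, as Herpud2 did. Alternatives covered pseudocount, filter, scaling, weights, left-out libraries and the authors' table. Named genes were the 10 genes, Dhx16, the 2 largest called rises and falls of each ER list, and the 5 genes most alike. Ern1, Trib3, Sesn2, Cebpg, Creb3l2, Nfya, Mbtps2, Jchain, Ms4a1, Cd79a, Cd79b and the called genes with a promoter element were named outside this rule, after their values were seen. The members and lists were chosen with earlier results of these data known. Protein sequences were not used here.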

Additional observations from a re-analysis of the deposited data

Results flagged for a closer look

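Of the 10 genes in the 2 groups, 1 value stood apart from the rest of its group by Dixon's criterion at the 95% level, which chance meets in about 1 in 20 groups. Xbp1 in control library WT2 was 131.09 FPKM, and the other 4 controls lay between 98.32 and 103.16 FPKM. Without WT2 Xbp1 was still called lower in the knockout.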

How the results depend on the processing

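No paired analysis was possible because the library columns carry other numbers than the sample titles. Dnajb9 and Herpud1 were called lower under all 23 alternatives (log2 changes of -1.57 to -1.02 and -1.06 to -0.48), and Xbp1 under all but the authors' table, where the change was -0.33. The scale between groups moved the other results. Under median-of-ratios factors 2 of the 9 tested genes were called higher, their median change was -0.030 and Pdia4 changed by 0.30. Of 120 tested wider ER genes 73 were called higher and 4 lower, beside 44.2% and 11.8% of all tested genes. Scaling to the authors' fold changes, an alternative chosen after seeing the data, gave 2 higher, a median of -0.022 and 0.31 for Pdia4. It gave 71 wider genes higher and 4 lower, beside 2991 and 819 of all 6913 tested genes. In the comparison of the authors' deposited table, 2 were higher and 2 lower, the median was -0.11, Pdia4 was at 0.32 and Sel1l at 0.018. There 87 of 147 wider genes were called, 78 higher and 9 lower, beside 17.1% and 11.5% of all 23405 genes. With equal totals 20 of 120 tested wider genes were called higher and 27 lower. Of all 6913 tested genes 1056 were then called higher and 2672 lower, so the share of wider genes called higher was near that of all genes. Without each library in turn 3 to 5 of the 9 tested genes were called lower, 0 higher, and the median was -0.49 to -0.36. Of 120 tested wider genes 45 to 55 were called, 25 to 35 higher and 18 to 21 lower. Of all 6913 tested genes 1236 to 1608 were then called higher and 1894 to 2231 lower. Sel1l lost its call under 10 alternatives with the same sign, and Sdf2l1 gained one under 4 (upper-quartile factors, equal totals, without WT5, without WT6). The 5 libraries per group and the unstated counting of overlapping genes limit small changes.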
